A study of Populus sp. cv. 'Okanese' with 18 samples.

Results

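Potri.017G144800 and Potri.004G074300 are the pair of poplar genes that the study's clock figure names CCA1 (CIRCADIAN CLOCK ASSOCIATED 1). The pair was taken by that name, with earlier results of these data known. Among these was the study's report that CCA1 was higher in the late morning. They are 2 of the 31033 genes in the count table, and both were among the 23700 genes tested. In Arabidopsis, CCA1 is a MYB-related transcription factor of the circadian clock whose transcript is most abundant around dawn. It represses genes that are expressed later in the day, such as GIGANTEA, LUX and several PSEUDO-RESPONSE REGULATORS (PRR), and members of the PRR family in turn repress CCA1. Whether the poplar genes have these roles was not measured here, so the name is used as the study gives it.

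The leaves came from trees of the hybrid poplar Populus × ‘Okanese’, all grown from cuttings of this single hybrid, and had formed during the water treatment. Trees grew for 42 days under a 15 h photoperiod. For 21 days they were then kept at a target gravimetric soil water content (SWCg) of 80, 50 or 30 %. This is expressed as a percentage of field capacity (1 field of the labels gives the unit as g/g). The study also gives each target as the top of a range, up to which dried pots were watered every morning. Sampling took place at 10 h, called late morning (LM), and 6 h later at 16 h, called early evening (EE), which gave 6 groups of 3 libraries named by time and water level: LM80, LM50, LM30, EE80, EE50 and EE30. The 3 libraries of a group carry the letters A, B and C. The well-watered groups at 80 % SWCg served as the controls.

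The 18 libraries held between 17348563 and 48110546 reads assigned to genes. The reads counted for Potri.017G144800 ranged from 2033 to 5640 per library in the late morning and from 556 to 1368 in the early evening, and those for Potri.004G074300 from 985 to 2549 and from 54 to 165. Evening values of Potri.004G074300 therefore rest on the fewest reads. A single tag in the column headers is shared by all 9 morning libraries and a different tag by all 9 evening libraries. What this tag marks is not stated. Time of day and whatever the tag marks cannot be told apart in any comparison of times. The sources used here do not state that each library is from a separate tree, so p-values refer to the variation among these libraries, which may be technical. In whole leaves, fewer cells of a type and less RNA per cell cannot be told apart. Leaf marker genes were not analysed here.

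Potri.017G144800 lies on the plus strand of chromosome 17 from base 14519739 to 14523284 of the P. trichocarpa v4.1 genome, and Potri.004G074300 on the minus strand of chromosome 4 from base 6180448 to 6184671. The first gene has 6 annotated exons with a summed length of 2337 bases. The second has 16 exon records at 10 distinct positions, which cover 3947 bases, and taking the shortest form of each exon leaves 6 exons with 2291 bases. The 4 internal exons have the same lengths in both genes, namely 135, 112, 62 and 384 bases in the order of transcription. The first and last exons measured 468 and 1176 bases in Potri.017G144800 and 407 and 1191 bases in the shortest form of Potri.004G074300. Neither gene overlaps another annotated gene on either strand. Alignment was to this reference species rather than to the hybrid, and whether reads of the paralogues could be assigned to each other was not tested.

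**Figure D1:**
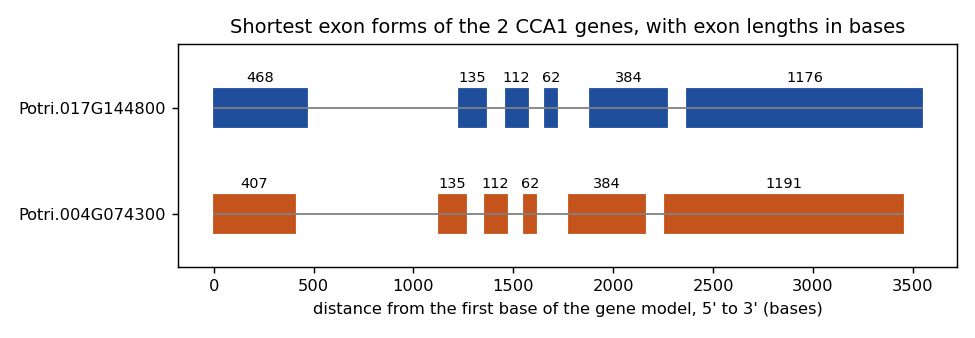
Exons of both CCA1 genes in their shortest annotated form, drawn 5′ to 3′ and to scale in bases from the first base of the gene model. Boxes are exons with their length above and lines are introns, and the 4 internal exons match in length (135, 112, 62 and 384 bases).

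Both genes had lower levels at 16 h than at 10 h at every soil water level, and Potri.004G074300 fell further than its paralogue. Transcript levels are given as CPM, the reads of a gene per 1000000 reads assigned to the 23700 tested genes after TMM scaling. This total leaves out 226 genes whose average log2 CPM lay above the upper limit of 9. They held 37.6 to 40.9 % of the assigned reads in the morning libraries and 31.5 to 35.0 % in the evening ones, so CPM over all assigned reads would be lower. Potri.017G144800 averaged 196 ± 14.4 CPM (SD, n = 9 libraries) in the late morning and 43.3 ± 5.70 CPM (SD, n = 9) in the early evening. Potri.004G074300 averaged 99.1 ± 7.95 CPM (SD, n = 9) and 5.35 ± 0.909 CPM (SD, n = 9).

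In the late morning, Potri.017G144800 measured 194, 212 and 180 CPM in libraries A, B and C of LM80. It measured 194, 187 and 190 CPM in LM50 and 227, 193 and 189 CPM in LM30. The 9 libraries were close to each other, with LM30 A the highest and LM80 C the lowest. In the early evening the same gene measured 44.0, 52.0 and 45.1 CPM in EE80. It measured 33.9, 47.6 and 41.4 CPM in EE50 and 35.4, 44.5 and 45.9 CPM in EE30. The lowest morning library was 3.47 times the highest evening library, so the times did not overlap at any water level. Groups were apart in the same direction for 27.6 % of all tested genes at 80 % SWCg, 28.7 % at 50 % and 26.5 % at 30 %.

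Potri.004G074300 measured 101, 95.8 and 87.3 CPM in libraries A, B and C of LM80. It measured 91.8, 105 and 92.7 CPM in LM50 and 109, 110 and 98.3 CPM in LM30. All morning values were below the lowest morning value of Potri.017G144800. In the early evening the gene measured 7.41, 4.48 and 5.44 CPM in EE80. It measured 5.12, 5.55 and 4.24 CPM in EE50 and 5.52, 4.88 and 5.51 CPM in EE30. The lowest morning library was 11.8 times the highest evening library, a wider gap than that of Potri.017G144800.

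**Figure D2:**
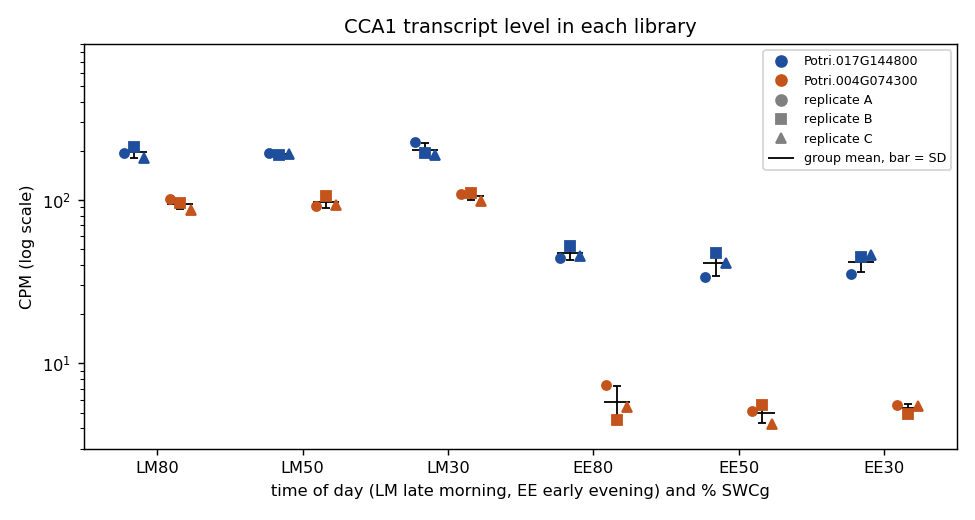
CPM of each CCA1 gene in the 18 libraries on a log axis, by group. Symbols are libraries A, B and C, horizontal lines are group means and vertical bars are SD (n = 3). The 9 morning libraries lie above the 9 evening libraries for each gene, and the gap is wider for Potri.004G074300 (11.8 times between the nearest libraries) than for Potri.017G144800 (3.47 times).

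Time of day was tested with the quasi-likelihood method of edgeR, with Benjamini–Hochberg adjustment over the 23700 genes. Both CCA1 genes were called lower in the evening at each water level, where 24.5 % of all tested genes were called lower at 80 % SWCg, 24.1 % at 50 % and 25.1 % at 30 %. For Potri.017G144800 the log2 fold change from LM80 to EE80 was −2.06 (SE 0.125, adjusted p = 8.5e-10), a level 4.17-fold lower. It was −2.22 (SE 0.126, adjusted p = 3.54e-10) at 50 % SWCg and −2.28 (SE 0.126, adjusted p = 3.03e-10) at 30 % SWCg. The evening level was thus 24.0, 21.5 and 20.6 % of the morning level at 80, 50 and 30 % SWCg.

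For Potri.004G074300 the log2 fold change from LM80 to EE80 was −4.04 (SE 0.138, adjusted p = 1.38e-12), a level 16.4-fold lower. It was −4.29 (SE 0.140, adjusted p = 7.73e-13) at 50 % SWCg and −4.31 (SE 0.139, adjusted p = 7.4e-13) at 30 % SWCg. Of the morning level, 6.09, 5.14 and 5.01 % was left in the evening at 80, 50 and 30 % SWCg. Ordered from the lowest log2 fold change of the 23700 genes, Potri.004G074300 stood at rank 68, 47 and 49 in the comparisons at 80, 50 and 30 % SWCg, and Potri.017G144800 at rank 526, 492 and 439. The 95 % intervals of the paralogues lay apart at each water level. At 80 % SWCg, the interval was −4.33 to −3.75 for Potri.004G074300 and −2.32 to −1.79 for Potri.017G144800.

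Since the paralogues fell by different amounts, their ratio depended on the time of day. The log2 ratio of Potri.004G074300 to Potri.017G144800 was −0.99 ± 0.114 (SD, n = 9) in the late morning, with a range of −1.15 to −0.81. In the early evening it was −3.02 ± 0.312 (SD, n = 9), with a range of −3.54 to −2.57. In other words, Potri.017G144800 had 1.99 ± 0.155 times the reads of Potri.004G074300 in the morning and 8.29 ± 1.80 times in the evening. Potri.004G074300 supplied 33.5 ± 1.77 % (SD, n = 9) of the reads of the pair in the morning and 11 ± 2.13 % (SD, n = 9) in the evening.

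By library, the log2 ratio in A, B and C was −0.94, −1.15 and −1.05 in LM80. It was −1.08, −0.83 and −1.03 in LM50 and −1.06, −0.81 and −0.95 in LM30. These 9 values overlapped between the water levels. The evening values were −2.57, −3.54 and −3.05 in EE80. They were −2.73, −3.10 and −3.29 in EE50 and −2.68, −3.19 and −3.06 in EE30. The evening libraries were more spread than the morning ones, and all 9 lay below every morning library.

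The change of the log2 ratio between the times, taken over the 3 water levels, was −2.03, a 4.1-fold change in the ratio. An exact permutation test of the libraries within water levels, two-sided, gave p = 0.00025, the smallest the design allows, and 0.00325 after adjustment over 13 comparisons of the ratio. The change was −2.01 at 80 % SWCg, −2.06 at 50 % and −2.04 at 30 %. In each evening group library A had the highest ratio, which was noticed after the data were seen. Leaving out the libraries lettered A therefore lowers every evening mean, and the change over the 3 water levels was then −2.24. Its exact permutation p of 0.00926 is the smallest that the remaining libraries allow. Within a single water level, 3 libraries against 3 cannot give an exact p below 0.1, and each of the levels gave this value. The difference of the change between 30 and 80 % SWCg was −0.03 (exact permutation p = 0.97) and that between 50 and 80 % SWCg was −0.05 (exact permutation p = 0.87).

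**Figure D3:**
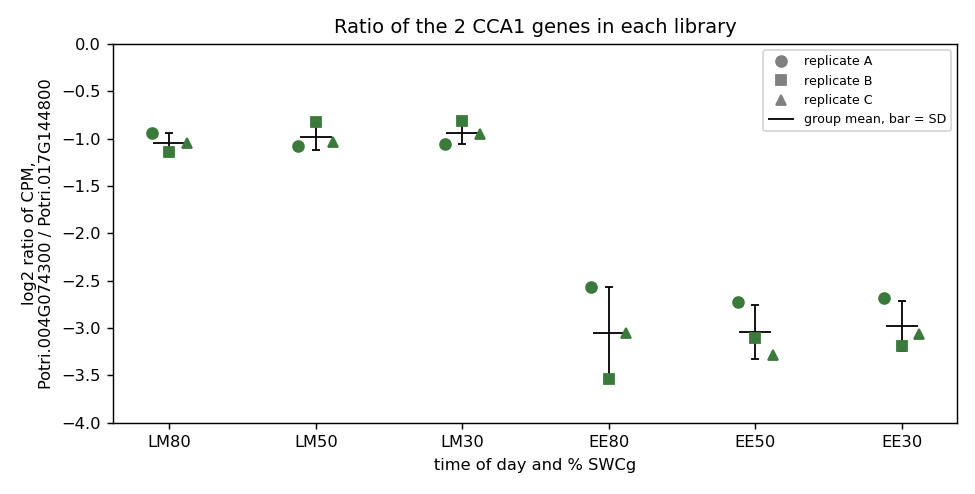
Log2 ratio of the CPM of Potri.004G074300 to that of Potri.017G144800 in the 18 libraries, by group. Symbols are libraries A, B and C, horizontal lines are group means and vertical bars are SD (n = 3). Morning libraries lie between −1.15 and −0.81 and evening libraries between −3.54 and −2.57.

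Because the genes differ in exon length, levels were also divided by length. Per kilobase of merged exons, the level of Potri.017G144800 was 84.0 ± 6.17 CPM in the morning and 18.5 ± 2.44 CPM in the evening (SD, n = 9 each). The level of Potri.004G074300 was 25.1 ± 2.01 and 1.36 ± 0.230 CPM per kilobase of its merged exons, and 43.2 ± 3.47 and 2.34 ± 0.397 CPM per kilobase of the shortest form (SD, n = 9 each). With either length, Potri.017G144800 had the higher level per kilobase at both times. The length in use moves the level of the ratio. It cannot move the change between the times, since the same length of a gene was applied to all libraries. Whether the exon forms in use differed between the times was not tested.

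The summed level of the pair was 290 ± 20.6 CPM in LM80, 287 ± 5.12 CPM in LM50 and 309 ± 25.0 CPM in LM30. In the evening it was 52.8 ± 3.24, 45.9 ± 7.06 and 47.2 ± 5.55 CPM in EE80, EE50 and EE30 (SD, n = 3 per group). The evening sum was mostly Potri.017G144800.

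Soil water level was compared within each time of day, and neither CCA1 gene was called in any of the 6 comparisons. For the order of the group means, Potri.017G144800 ran LM30, LM80, LM50, EE80, EE30 and EE50 from high to low. Potri.004G074300 ran LM30, LM50, LM80, EE80, EE30 and EE50. Neighbours in these orders overlapped in their libraries within a time of day and were apart only between the lowest morning and the highest evening group.

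In the late morning, Potri.017G144800 averaged 203 ± 21.0 CPM in LM30 against 196 ± 15.9 CPM in LM80 (SD, n = 3 each). The log2 difference was 0.05 (adjusted p = 0.877 by edgeR), with a 95 % interval of −12.8 to 23.7 % relative to LM80. The mean in LM50 was 190 ± 3.52 CPM, and its log2 difference from LM80 was −0.04 (edgeR adjusted p = 1). Potri.004G074300 averaged 106 ± 6.47 CPM in LM30, 96.6 ± 7.61 CPM in LM50 and 94.9 ± 7.10 CPM in LM80. The log2 fold change from LM80 was 0.16 (edgeR adjusted p = 0.559) in LM30 and 0.03 (edgeR adjusted p = 1) in LM50. The interval for LM30 was −5.84 to 31.8 %. Of all tested genes, 0.0675 % were called in LM30 against LM80. In LM50 against LM80 edgeR called 0 %, with 468 genes under an unadjusted p of 0.05, and DESeq2 and the robust likelihood ratio test of edgeR called 1 each.

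In the early evening, both paralogues had lower means in the drier groups than in EE80, by less than the test could separate. Potri.017G144800 averaged 47.0 ± 4.36 CPM in EE80, 41.0 ± 6.85 CPM in EE50 and 41.9 ± 5.69 CPM in EE30. Its log2 fold change from EE80 was −0.16 in EE30 (edgeR adjusted p = 0.534) and −0.20 in EE50 (edgeR adjusted p = 0.839). Potri.004G074300 averaged 5.78 ± 1.5 CPM in EE80, 4.97 ± 0.665 CPM in EE50 and 5.30 ± 0.369 CPM in EE30. Its log2 fold change was −0.12 in EE30 (edgeR adjusted p = 0.735) and −0.22 in EE50 (edgeR adjusted p = 0.851). The share of all tested genes called was 1.94 % (460 genes, or 739 with a replicate block) in EE30 against EE80 and 0.0127 % in EE50 against EE80.

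The intervals give the range of water responses that the fit left possible for each gene. They are not adjusted for the 23700 genes tested, so a call needed more than an interval that excludes 0. For EE30 against EE80, the 95 % interval was −25.4 to 7.06 % for Potri.017G144800 and −25.8 to 14.3 % for Potri.004G074300. For EE50 against EE80 it was −27.2 to 4.55 % and −31.2 to 6.88 %. Between 30 and 50 % SWCg the log2 differences were 0.09 and 0.03 for Potri.017G144800 in the morning and the evening, and 0.13 and 0.10 for Potri.004G074300. Between these levels, 0.0169 % of all genes were called in the evening and 0 % in the morning, where 2721 genes had an unadjusted p under 0.05, DESeq2 called 146 and the robust likelihood ratio test 241. None of the 6 water comparisons had an unadjusted p under 0.05 for either gene, and neither DESeq2 nor the robust likelihood ratio test of edgeR called one.

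The difference of the water response between the times of day was tested as an interaction. For 30 against 80 % SWCg it was −0.22 on the log2 scale for Potri.017G144800 (95 % interval −0.58 to 0.15, edgeR adjusted p = 0.747). It was −0.27 for Potri.004G074300 (95 % interval −0.67 to 0.12, edgeR adjusted p = 0.701). For 50 against 80 % SWCg the values were −0.16 and −0.25, with adjusted p of 0.985 and 0.984 by edgeR. By the quasi-likelihood test of edgeR, neither interaction was called for any gene, with 2040 and 1050 unadjusted p-values under 0.05. DESeq2 called 33 and 2 genes, and the robust likelihood ratio test 44 and 11. Averaged over both times, a contrast added after the data were seen, 30 against 80 % SWCg gave −0.05 and 0.02 for the same genes, with adjusted p of 0.768 and 0.939 by edgeR, and 5.56 % of all genes were called.

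**Figure D4:**
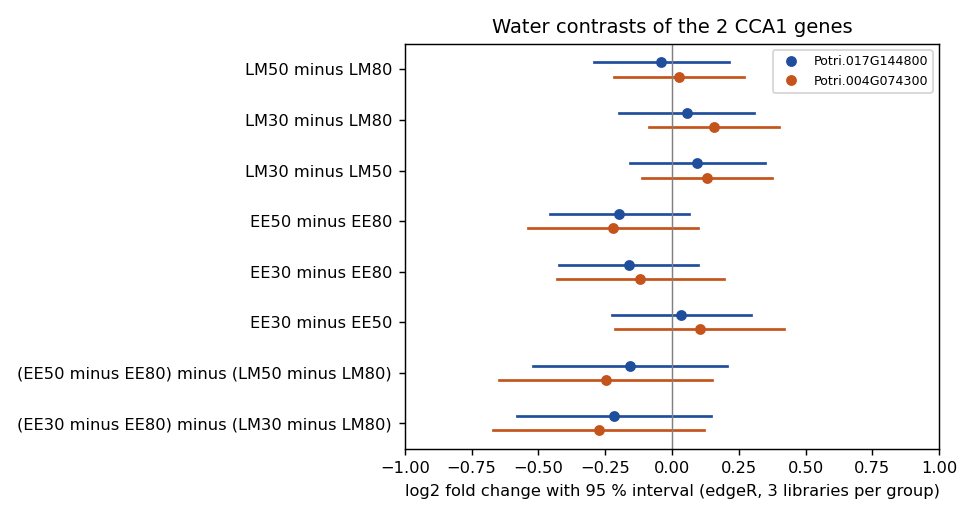
Log2 fold changes between soil water levels for both CCA1 genes at each time of day, and the differences of these changes between the times, with 95 % intervals from the edgeR fit. All the intervals include 0, and the point estimates lie between −0.27 and 0.16.

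No comparison of water levels taken over both times passed the test of the ratio of the paralogues. Over both times, the log2 ratio at 30 % SWCg was 0.09 higher than at 80 % SWCg (exact permutation p = 0.61, adjusted p = 0.91 over the 13 comparisons). At 50 % SWCg it was 0.04 higher than at 80 % SWCg (exact permutation p = 0.805). The 3 comparisons within the morning gave differences of 0.04 to 0.10, beside SDs of 0.104 to 0.134 within the morning groups. Those within the evening gave 0.01 to 0.08, beside SDs of 0.264 to 0.484. The exact permutation p of these comparisons within a time was 0.5 to 1. With 3 libraries against 3 it cannot go below 0.1, so they could not pass whatever the difference.

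Neither gene had the larger replicate spread in every group. The CV of Potri.004G074300 over the libraries of a group was between 6.12 and 7.87 % in the morning groups. In the evening it was 25.9 % in EE80, 13.4 % in EE50 and 6.97 % in EE30, where counting alone gives 10.7, 10.6 and 9.84 %. For Potri.017G144800 the CV was 8.13 % in LM80, 1.85 % in LM50 and 10.3 % in LM30. In the evening it was 9.28 % in EE80, 16.7 % in EE50 and 13.6 % in EE30, where counting alone gives 3.52 to 3.73 %. The biological CV fitted by edgeR was 10.8 % for Potri.017G144800 and 9.34 % for Potri.004G074300, against a median of 10.9 % over all tested genes. The fit draws the value of each gene towards that of the other genes, so a fitted CV near the median is partly built in. The CV over libraries was not compared with that of other genes.

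Whether the paralogues moved together between libraries was examined within each time, since the times form separate clusters. In the morning Pearson's r was 0.458 over 9 libraries (exact permutation p = 0.222) and Spearman's rho was 0.333 (exact permutation p = 0.385). In the evening r was −0.0598 (exact permutation p = 0.883) and rho was 0.017 (exact permutation p = 0.982). Without the 2 libraries farthest from the median of Potri.017G144800, r was 0.470 in the morning and −0.111 in the evening. The p-values for r, adjusted over both times, were 0.443 and 0.883. With the means of the water levels removed, r was 0.356 in the morning (exact permutation p = 0.417) and −0.277 in the evening (exact permutation p = 0.449).

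Beside the pair, 11 clock genes named in the study's figure were described (PRR9, PRR7, PRR5, GI, ZTL and LUX). The list is partial, since the figure holds further clock genes that were not analysed here, and it was chosen with earlier results known. Of these 11 genes, 9 were called higher in the evening at each water level, whereas 27.3, 28.8 and 28.3 % of all tested genes were called higher at 80, 50 and 30 % SWCg. The exceptions were both PRR9 genes, whose Arabidopsis counterpart is an early member of the PRR series. Potri.014G106000 had a log2 fold change of −1.32, −1.49 and −1.53 at 80, 50 and 30 % SWCg and was called lower at each, while Potri.002G179800 was called lower only at 50 % SWCg (−0.24, edgeR adjusted p = 0.0262). The median log2 fold change of the 11 genes was 2.45, 2.43 and 2.40 at 80, 50 and 30 % SWCg, against 0.03, 0.05 and 0.02 over all tested genes.

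GIGANTEA (Potri.005G196700), a clock gene with an afternoon peak in Arabidopsis, had log2 fold changes of 1.94, 1.85 and 2.2. The evening complex gene LUX Potri.009G035000 had log2 fold changes of 4.48, 4.30 and 4.52. Both are among the genes that CCA1 represses in Arabidopsis, as are several PRR genes. Of the PRR genes listed here, those of PRR7 and PRR5 were called higher in the evening and those of PRR9 were not. Whether the poplar CCA1 genes act on any of these was not tested. In the comparisons of water levels within a time, 0 of the 11 genes were called by edgeR, and the smallest adjusted p was 0.163, in LM30 against LM80. Unadjusted p-values under 0.05 were found for 3 of the 11 in LM30 against LM80, 2 in LM30 against LM50 and 1 in EE50 against EE80, and for 0 in the other 3 comparisons. DESeq2 called 1 of the 11 in LM30 against LM50, and the robust likelihood ratio test of edgeR called 1 there and 1 in LM30 against LM80.

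**Figure D5:**
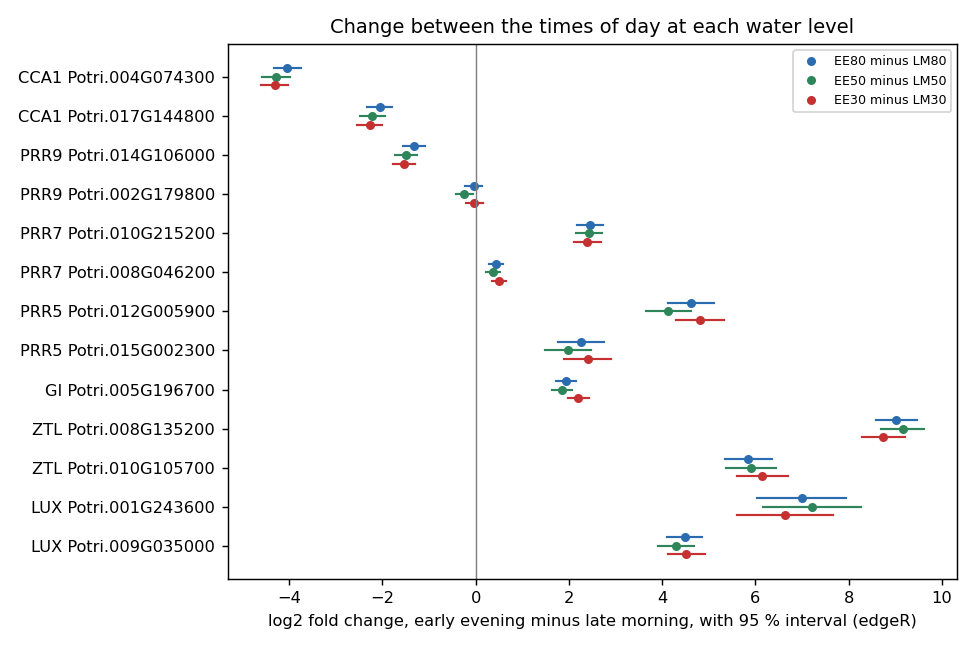
Log2 fold change from late morning to early evening of both CCA1 genes and the 11 listed clock genes at the 3 soil water levels, with 95 % intervals from edgeR. The CCA1 genes lie between −4.31 and −2.06, and 9 of the 11 others lie above 0 at each water level. Fitted values of the LUX gene Potri.001G243600 and the ZTL gene Potri.008G135200, which have very few reads in the morning, depend on the prior count.

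Genes with the most similar profile were ranked by the root mean square difference of log2 CPM, each gene centred on its mean over the 18 libraries. The nearest gene to Potri.017G144800 was Potri.008G159400, with a difference of 0.106, followed by Potri.017G090100 (0.130), Potri.001G205800 (0.138), Potri.007G015200 (0.141) and Potri.001G160400 (0.149). Its paralogue Potri.004G074300 stood at rank 7663 of 23699, with a difference of 1.03. Profiles were not scaled, so the distance between the paralogues mostly reflects the unequal size of their falls, and both were lower in the evening. The nearest gene to Potri.004G074300 was Potri.016G083900, with a difference of 0.202, followed by Potri.009G053700 (0.262), Potri.001G031800 (0.267), Potri.009G133400 (0.282) and Potri.012G131800 (0.289). From that side Potri.017G144800 stood at rank 322. No gene was among the nearest 5 of both members. Descriptions of these genes were not used here.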

How the data were processed

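RNA-seq reads of 100 bases, single-end, from 18 leaf libraries were trimmed by the authors with Trimmomatic, aligned with HISAT2 2.2.1 to version 4.1 of the P. trichocarpa genome, processed with SAMtools 1.3.1 and counted with featureCounts 2.0.1. The authors deposited the raw count of each gene in each library. The file header names no option for strand, overlapping genes or reads with several alignments, so reads shared by near-identical copies may be missing or split.

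Groups came from the sample labels. Genes whose average log2 CPM lay between −2 and 9 were fitted under R 4.3.3 in 1 model of 6 groups with edgeR 4.0.16 (TMM, quasi-likelihood F test), and an adjusted p below 0.05 was called. The fit was tested on simulated data. CPM, ratios and exact permutation tests were computed with Python 3.11.15, pandas 2.3.3 and scipy 1.17.1. Log2 CPM for likeness used a prior count of 2, and the 5 nearest genes of each member were named. Correlated deviations of libraries with 1 letter exceeded 0.1 for every letter only between EE30 and EE80 (0.206, 0.197 and 0.378), and no source used here says what a letter marks. Alternatives were DESeq2 1.42.0, size factors of DESeq2, a robust likelihood ratio test and a replicate block. Further ones took all genes with any count, without either limit on average log2 CPM, or the filterByExpr filter of edgeR. Each time alone, another prior count and each library left out were also tried. The members, the clock list and the tests were chosen with earlier results of these data known. The planned leaf marker check and a list of related MYB genes were not used here, since no gene descriptions were given.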

Additional observations from a re-analysis of the deposited data

How the results depend on the processing

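Both CCA1 genes were called lower in the evening in all 144 refits of the time comparisons, with log2 fold changes between −4.37 and −2.01. In 300 refits of the water comparisons neither was called (smallest adjusted p 0.383 over edgeR and DESeq2), nor in 96 refits of the interactions (smallest adjusted p 0.474). With the replicate block, EE80 against LM80 gave −2.06 for Potri.017G144800 and −4.03 for Potri.004G074300, and the block changed no call of either gene. The ratio change between times was −2.12 to −1.95 with each library left out.

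Of the 12 uncalled water differences of the genes, 6 changed sign when 1 library was left out. For Potri.017G144800 they ran from −0.034 to 0.10 in LM30 against LM80, −0.095 to 0.033 in LM50 against LM80 and −0.083 to 0.16 in EE30 against EE50. For Potri.004G074300 they ran from −0.041 to 0.077 in LM50 against LM80, −0.24 to 0.072 in EE30 against EE80 and −0.0072 to 0.19 in EE30 against EE50. The others kept their sign but moved by over 1.5 times. For Potri.017G144800 these ranges were 0.0063 to 0.14 in LM30 against LM50, −0.23 to −0.055 in EE30 against EE80 and −0.32 to −0.079 in EE50 against EE80. For Potri.004G074300 they were 0.10 to 0.21 in LM30 against LM80, 0.082 to 0.20 in LM30 against LM50 and −0.35 to −0.031 in EE50 against EE80. The interactions for 30 and 50 % SWCg ran from −0.29 to −0.11 and −0.28 to −0.039 for Potri.017G144800, and from −0.40 to −0.084 and −0.37 to −0.057 for Potri.004G074300. For the log2 ratio over both times, the ranges were −0.031 to 0.21 for 30 against 80 % SWCg, −0.082 to 0.16 for 50 against 80 % and −0.023 to 0.13 for 30 against 50 %. Within a time they were −0.013 to 0.12 in LM50 against LM80, −0.021 to 0.12 in LM30 against LM50, −0.17 to 0.32 in EE30 against EE80, −0.23 to 0.26 in EE50 against EE80 and −0.087 to 0.22 in EE30 against EE50.

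The count of all genes called by water level, which sets the background, moved more. In LM30 against LM80, 16 genes became 538 with DESeq2, 694 with the robust likelihood ratio test, 256 with the block and 7 with each time fitted alone, and 0 to 171 with 1 library left out. In EE30 against EE80, 460 genes became 1033, 1576 and 739 with the first 3 of these, and 62 to 737 with 1 library left out. The cause was not tested. In LM30 against LM50, 0 genes became 146 with DESeq2 and 241 with the robust test. In EE50 against EE80, 3 became 38 and 125, and in EE30 against EE50, 4 became 38 and 76. The interactions went from 0 to 33 and 44 for 30 % SWCg and from 0 to 2 and 11 for 50 % SWCg. Evening values of Potri.004G074300 rest on 54 to 165 reads, so differences of the size of its counting error were not detectable there.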

Other observations

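In the early evening, the libraries lettered A had the highest shares of Potri.004G074300 in the reads of the CCA1 pair, a pattern noticed after the data were seen. Potri.004G074300 supplied 14.4 % of the reads of the pair in EE80 A (95 % Wilson interval 12 to 17.2 %), 13.1 % in EE50 A (10.7 to 16.0 %) and 13.5 % in EE30 A (11 to 16.1 %). In the other 6 evening libraries it supplied 7.93 to 10.8 %. Their Wilson intervals reached 12.4 % in EE80 C, 12.6 % in EE50 B and 12.6 % in EE30 C, so in each group there was overlap with that of library A. The interval of EE80 B, 6.13 to 10.2 %, did not overlap that of EE80 A. The intervals cover counting error only. In the late morning the libraries lettered A gave 32.1 to 34.3 % and the others 31.1 to 36.3 %, so they overlapped. Without the libraries lettered A, which had the highest evening ratios, the log2 ratio changed by −2.24 between the times, a 4.71-fold change. The exact permutation p of 0.00926 is the smallest possible with the remaining libraries. The sources used here do not say what a letter marks.

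Correlations of the CCA1 genes with the 11 listed clock genes, a part of those in the study's figure, were computed within each time over 9 libraries, 44 relations in all. Pearson's r passed an unadjusted p of 0.05 in 5 of them and an adjusted p of 0.05 in 1. In the evening, Potri.017G144800 and the PRR5 gene Potri.015G002300 gave r = 0.893 (exact permutation p = 0.0011, adjusted p = 0.0484) and rho = 0.800, whose adjusted permutation p was 0.608. Without EE50 A and EE30 A, the 2 libraries farthest from the median of Potri.017G144800, r was 0.597. The relation thus rests in part on those libraries, which are among the evening libraries lettered A described above. By rho, 0 of the 44 relations passed.

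The size of the change in log2 ratio between the times was 2.01 for the CCA1 paralogues, on log2 CPM with a prior count of 2. For other pairs of clock paralogues it was 1.34 for PRR9, 1.98 for PRR7, 2.31 for PRR5, 2.69 for ZTL and 1.90 for LUX. From the edgeR fold changes, with a smaller prior count, the sizes were 2.03 for CCA1, 3.00 for ZTL and 2.51 for LUX, so LUX lies below CCA1 by the first measure and above it by the second. A member of the ZTL pair and a member of the LUX pair have very few reads in the morning. These sizes were not compared by a test.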
